A study of Mus musculus with 26 samples.

Results

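Mammary cells of mice null for Snai2 that were sorted into a fraction labelled luminal-basal were compared with wild-type cells sorted as basal, both at 12 months of age. The comparison rests on 4 of the 26 sequenced libraries, 2 null and 2 wild type, each made from cells pooled from 3 mice. The mice were B6.129S1, either wild type or homozygous for a LacZ allele in Snai2 in every cell, so that the null cells developed and aged without the gene. Minced and frozen mammary tissue was dissociated, and cells were sorted on EpCAM and CD49f (integrin alpha 6), after which RNA was amplified before library preparation. Both null pools, A5 and A6, also gave luminal, basal and stromal fractions, and the wild-type pools, A1 and A2, gave luminal, basal and stromal ones. The labels do not say where on the EpCAM and CD49f axes the luminal-basal fraction was gated.

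The null pair holds 1 library taken against its label. In pool A5 the library labelled stromal carried 1025 CPM (counts scaled to a library total of 1e+06) of Krt14, the keratin of basal epithelial cells, and 23.9 CPM of Col1a1, a collagen of fibroblasts, whereas the library labelled luminal-basal carried 34.8 and 1218 CPM. These 2 labels were treated as exchanged, so the null group is the A5 library labelled stromal and the A6 library labelled luminal-basal. Krt14 and Col1a1 therefore chose the A5 library and are given without a test, and genes of the same cells, basal and fibroblast genes above all, are touched by that choice. The main results are also given with A6 as the only null library, a fit that leaves out both doubted A5 libraries and rests on no such choice. With the labels as deposited, edgeR called 0 genes at an adjusted p under 0.05, DESeq2 was not run on those labels, and 1169 genes had an unadjusted p under 0.05.

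The mammary duct is a bilayer. Luminal cells line the lumen, carry keratins 8 and 18 and tight-junction claudins, and include hormone-sensing cells and secretory progenitors. Basal cells lie against the basement membrane, carry keratins 5 and 14, integrins and the transcription factor p63, and contract to eject milk. Snai2 encodes Slug, a zinc-finger repressor of the Snail family that binds E-boxes of the sequence CAGGTG, is made in basal cells, and is known for repressing epithelial junction genes and for its part in basal and stem cell identity.

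Total counts were 3203664 and 8475262 for wild-type pools A1 and A2 and 6511920 and 5370328 for null pools A5 and A6, within the range of 2951035 to 16649904 over all libraries. The A6 library detected 14756 genes and the other 3 detected 17907 to 19282, although its total was not the lowest. Across 15917 genes the null pair correlated at r = 0.874 and the wild-type pair at r = 0.939 (log2 CPM, across genes, which are not independent). The A6 library alone shifted the median log2 difference of all genes from -0.03 to -0.30, and values from A6 alone are read against that shift. Since each genotype is represented by separate pools, genotype and pool cannot be told apart. P-values rest on a spread between pools estimated over all 13 groups, in which fractions of the same mice enter as separate libraries. With A6 alone the null group adds nothing to that spread.

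The targeted gene was checked first. Snai2 (ENSMUSG00000022676, chr16:14705852-14709385 in GRCm38, plus strand) had 0 counts in both null libraries and 192 and 384 counts, or 58.7 and 51.4 CPM, in wild-type basal pools A1 and A2. The groups did not overlap, and Snai2 was at least 205-fold lower in the null pair, a bound that sets the pair together to 3 counts and covers counting error only (edgeR, adjusted p = 0.00229; 0.0288 with A6 alone). Wild-type luminal libraries held 1.16 and 0.74 CPM. The related gene Snai1 did not pass the test, with 5.46 and 2.11 CPM in null pools A5 and A6 and 4.89 and 6.70 CPM in wild type (log2 difference -0.61 ± 0.79 SE, adjusted p = 0.777).

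The A6 library, whose label was not changed, held Krt14 at 719 CPM, against 308 and 405 CPM in wild-type basal cells and 5.98 and 9.29 CPM in wild-type luminal cells. The 1025 CPM of the A5 library chose it and shows nothing about its identity. Krt5, the partner of keratin 14, was at 1411 and 1918 CPM in the null pair and 324 and 466 CPM in wild-type basal cells, a log2 difference of 2.07 ± 1.03 SE that did not pass the test (adjusted p = 0.368; 0.333 with A6 alone), although it did without the low-count filter (2.1e-07). The luminal keratin Krt8 stood at 80.7 and 77.7 CPM in the null pair, below both wild-type basal libraries at 182 and 171 CPM and far below wild-type luminal cells at 626 and 485 CPM. Its difference from wild-type basal cells, -1.16 ± 0.62 SE, did not pass the test (adjusted p = 0.397; 0.0339 without the filter), nor did that of Krt18, the partner of keratin 8, at -0.89 ± 0.39 SE (adjusted p = 0.274). Epcam and Itga6, which encode the sorted proteins, were at 677 and 713 CPM and at 946 and 790 CPM in the null pair, against 419 and 450 CPM and 674 and 584 CPM in wild-type basal cells, and are given without a test.

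**Figure D1:**
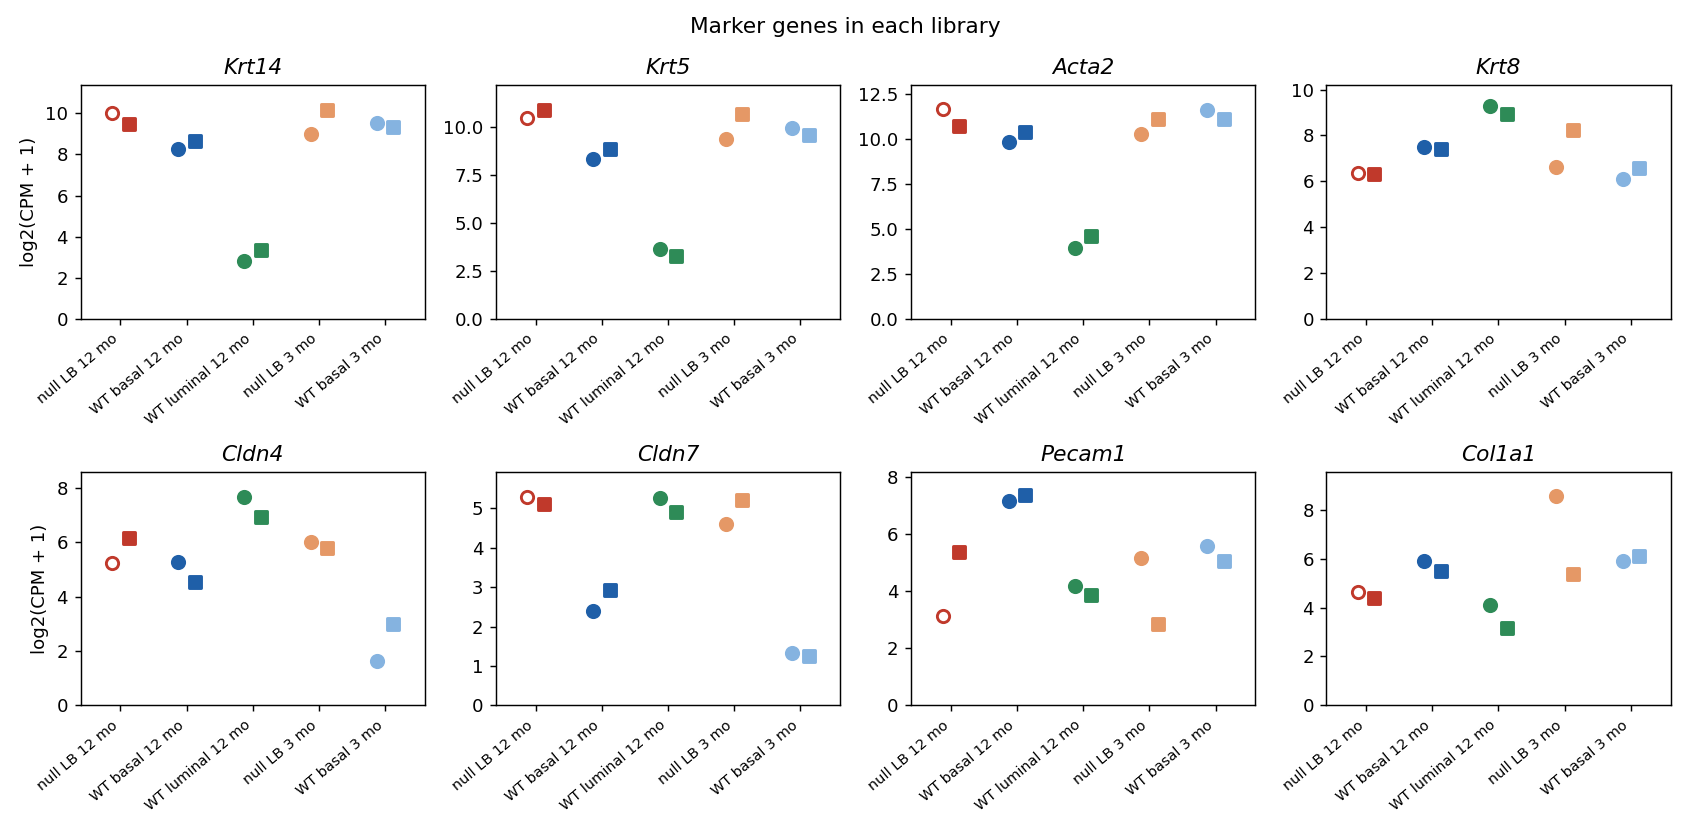
Level of 8 marker genes in each library, as log2(CPM + 1), by group. Each group has a circle and a square, 1 per pool, and the open circle is the A5 library labelled stromal. LB is luminal-basal, WT wild type and mo months. The null 12-month libraries sit above wild-type basal cells for Krt14 and Krt5, below them for Krt8 and Pecam1, and level with wild-type luminal cells for Cldn7.

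The position between the layers was described with genes from other libraries. Genes that differed between wild-type basal and luminal cells at 3 months numbered 1049 on the basal side and 627 on the luminal side. The median of the basal-side genes was 5.70 and 5.64 log2 CPM in null pools A5 and A6, against 5.55 and 5.43 in wild-type basal and 3.32 and 3.15 in wild-type luminal cells at 12 months. The luminal-side genes had medians of 3.12 and 3.54 in the null pair, 3.62 and 3.82 in wild-type basal and 5.06 and 5.05 in wild-type luminal cells. The A6 library thus lay on the basal side of the plot of layer medians. These medians are not adjusted for the median shift of -0.30 over all genes with A6 alone. The luminal-side median of A6, 3.54, was close to the 3.62 of wild-type pool A1, and its place just beyond wild-type basal cells was not tested. A5 lay on the basal side too, but it was chosen by Krt14, a basal gene, and Col1a1, so its position is no separate result. Wild-type basal cells at 3 months lay further out, at 5.97 and 5.75 for basal-side and 2.46 and 2.96 for luminal-side genes. Those libraries helped to choose the genes, so the null position beside them was not tested.

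**Figure D2:**
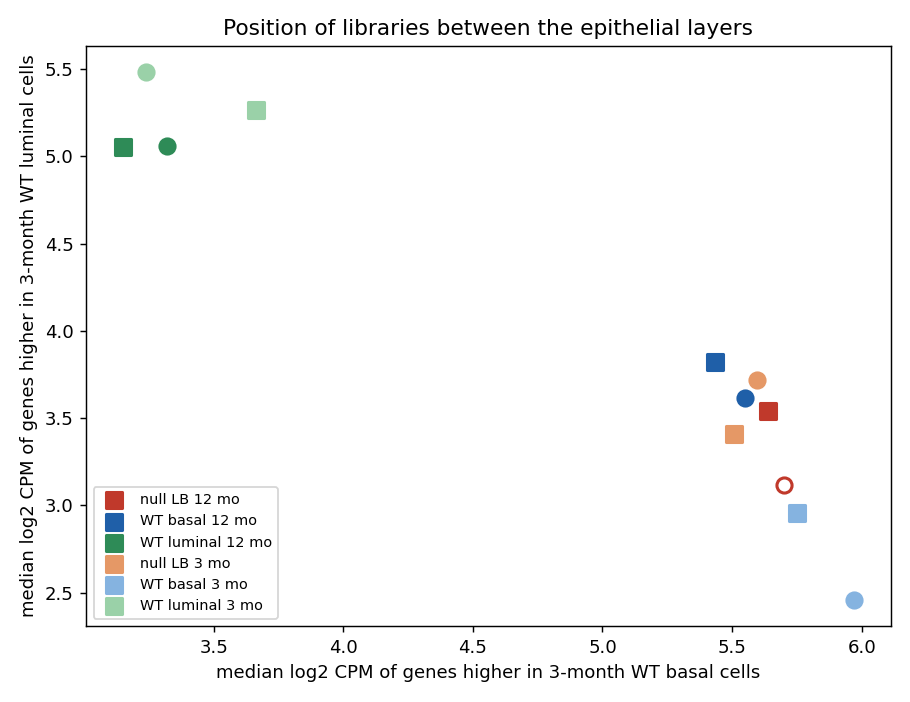
Median log2 CPM of 627 luminal-side genes (vertical) against that of 1049 basal-side genes (horizontal) in each epithelial library, with a circle and a square for the pools and an open circle for the A5 library labelled stromal. The genes were chosen on the 3-month wild-type libraries, whose own positions are fixed by that choice, and the null luminal-basal libraries lie with the basal libraries at lower right. The A5 library was chosen by Krt14 and Col1a1, so its position is no separate result.

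Of 15917 genes tested, 274 differed between the null pair and wild-type basal cells, which is 1.72% (edgeR quasi-likelihood test, Benjamini-Hochberg adjusted p under 0.05). Of these 43 were higher in the null pair (0.27% of genes tested) and 231 were lower (1.45%). The 4 libraries did not overlap for 42 of the 43 rises and for all 231 falls, which the calls largely fix, and for 41% of all genes tested. Among the calls 41 of the rises and 223 of the falls were protein-coding genes, counts given without the share over all genes tested and not read as a result. With A6 as the only null library, 393 of 17234 genes were called (2.28%), 114 higher (0.661%) and 279 lower (1.62%). That fit shares A6 and both wild-type libraries with the full one, so a like direction is fixed for genes without overlap, and 27 of the 43 rises and 114 of the 231 falls passed its threshold. The count rested on single libraries: it was 114 without wild-type pool A1 and 92 without A2, 147 without null pool A6 and 499 without null pool A5.

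Of 26 curated lists, the endothelial one held the most calls, all of them falls. All 18 endothelial genes tested lay below 0, 12 of them passed the test, and their median log2 difference was -4.38 against -0.03 over all genes tested. With A6 alone 9 of 18 passed and the median was -4.96. The summed level of the 18 genes was 66.6 and 208 CPM in null pools A5 and A6 and 989 and 1340 CPM in wild-type basal pools A1 and A2, without overlap. Emcn, the endothelial sialomucin endomucin, was at 2.89 and 0.58 CPM in the null pair and 49.2 and 65.0 CPM in wild-type basal cells (log2 difference -4.99 ± 0.61 SE, adjusted p = 0.000248). Kdr, the receptor for vascular endothelial growth factor, was at 1.28 and 0.96 CPM against 38.2 and 48.2 CPM (-5.23 ± 0.78 SE, adjusted p = 0.000802). Cdh5, the cadherin of endothelial junctions, was at 4.33 and 9.79 CPM against 120 and 158 CPM (-4.31 ± 0.72 SE, adjusted p = 0.00318). Cldn5, the tight-junction claudin of endothelium, had 0 counts in both null libraries and 106 in the wild-type pair, at least 37.6-fold lower (adjusted p = 0.00148). Esam, an endothelial adhesion molecule, had 3 counts in the null pair and 320 in wild type, a ratio of 114 with a 95% counting interval of 38.5 to 554 (adjusted p = 0.000338). These 5 kept their calls with each of the 4 libraries left out in turn and with A6 alone.

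The largest falls by fold included further genes of vessel walls. Gpihbp1, which carries lipoprotein lipase across capillary endothelium, had 0 counts in the null pair and 26.3 and 27.7 CPM in wild type, at least 104-fold lower (adjusted p = 0.000374). Fli1, an ETS transcription factor of endothelial and blood cells, was at 1.61 and 0.19 CPM in the null pair and 45.9 and 51.3 CPM in wild-type basal cells (log2 difference -5.66 ± 0.80 SE, adjusted p = 0.000475). Meox2, a homeobox factor of vascular endothelium, was at 1.12 and 0.38 CPM against 24.8 and 43.1 CPM (-5.42 ± 0.82 SE, adjusted p = 0.00105). Cd300lg, a receptor of capillary endothelium, was at 1.12 and 0.19 CPM against 44.3 and 50.6 CPM, and Mmrn1, which encodes the secreted protein multimerin, at 0.32 and 0.19 CPM against 18.7 and 6.03 CPM. C1qtnf9, a secreted relative of adiponectin, had 0 counts in the null pair and 127 in wild type, at least 45.1-fold lower (adjusted p = 0.00544). Gpihbp1, Fli1 and Meox2 kept their calls with any library left out. Cd300lg lost its call without A6 (adjusted p = 0.131) and without A2 (0.0617), C1qtnf9 without A6 (0.0561), and Mmrn1 without A6 (0.064) and without A1 (0.0543).

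The basal gate of the same null pools held the vessel genes at high levels. The summed endothelial level was 6015 and 5730 CPM in the null basal-gate libraries of A5 and A6, and the group with the highest mean was the null basal gate for 156 of the 231 falls (67.5%), for 1 of the 43 rises and for 18.8% of all genes tested. It was wild-type basal cells at 12 months for 3 falls (1.3%) and for 3.79% of all genes tested. Pericyte genes, of the cells that wrap capillaries, summed to 51.2 and 156 CPM in the null luminal-basal pair, 679 and 582 CPM in wild-type basal cells and 5311 and 5956 CPM in the null basal gate. None of the 10 pericyte genes tested passed, all 10 lay below 0, and their median was -2.23. Rgs5, a regulator of G-protein signalling that marks pericytes, was at 18.8 and 99.4 CPM against 532 and 439 CPM in wild-type basal cells (-3.04 ± 0.83 SE, adjusted p = 0.0796). DESeq2 called it (adjusted p = 0.000786), as did the fit with a replicate block (0.0285). Notch3, Abcc9, Pdgfrb and Heyl, other genes of mural cells, differed by -0.83, -3.16, -2.67 and -3.67, and none passed, though Heyl did with A6 alone (adjusted p = 0.0395) and DESeq2 called the last 3 (0.0292, 0.0138 and 0.00305). Of 9 adipocyte genes 1 passed: the fatty-acid carrier Fabp4, which capillary endothelium also makes, fell from 342 and 505 CPM to 19.4 and 43.0 CPM (-3.77 ± 0.71 SE, adjusted p = 0.00972; 0.0585 with A6 alone). It also missed the threshold without A5, A6 or A2 (adjusted p = 0.0628, 0.0506 and 0.0704). In sorted bulk cells, fewer cells of a type and less RNA per cell cannot be told apart. Where the wild-type basal and null luminal-basal gates differed, gate and genotype cannot be told apart either.

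Among other stromal genes those of fibroblasts leaned the same way, with 1 call. Of 18 fibroblast genes 17 lay below 0 and the remaining 1 had no counts in these libraries, with a median of -1.86 (-2.40 with A6 alone). Their summed level was 319 and 421 CPM in the null pair against 1244 and 829 CPM in wild-type basal cells. The A5 library was chosen by Krt14 and by Col1a1, a fibroblast gene. The count, the median with both null libraries and the A5 sum are therefore partly fixed by that choice. Only Cd34, a sialomucin of fibroblasts and endothelium, passed, at 4.98 and 1.73 CPM against 37.6 and 41.5 CPM (-3.53 ± 0.86 SE, adjusted p = 0.0481), and with A6 alone it did not (0.0807). Col1a1, which helped to choose the A5 library, stood at 23.9 and 20.2 CPM in the null pair and 59.0 and 43.9 CPM in wild-type basal cells. Macrophage genes gave no call among 12, with a median of -0.20 and, with A6 alone, -1.83 with 8 of 12 below 0. None of the lymphocyte, skeletal muscle, or nerve and Schwann cell genes passed (8, 11 and 9 tested).

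Among epithelial lists, luminal identity held 2 calls that went the other way. Of 27 genes of luminal identity 2 rose, none fell, 17 lay above 0, and the median log2 difference was 0.46 (0.48 with A6 alone). Cldn7 (ENSMUSG00000018569), a tight-junction claudin, was at 38.0 and 33.8 CPM in null pools A5 and A6 and 4.28 and 6.56 CPM in wild-type basal cells (2.70 ± 0.59 SE, adjusted p = 0.0179; 0.0482 with A6 alone). The null libraries lay at the level of wild-type luminal cells, 37.4 and 28.8 CPM, from which they differed by 0.12 ± 0.54 SE (adjusted p = 0.938). Spint1 (ENSMUSG00000027315), an epithelial inhibitor of membrane serine proteases, was at 112 and 91.0 CPM against 29.0 and 24.1 CPM in wild-type basal cells (1.94 ± 0.45 SE, adjusted p = 0.0288; 0.0823 with A6 alone). Both calls were lost without wild-type pool A1 (adjusted p = 0.21 for Cldn7 and 0.161 for Spint1) and without A2 (0.111 and 0.227), and that of Spint1 also without A5 or A6 (0.0641 and 0.0506). Cldn4, a claudin of luminal cells, was at 36.6 and 70.4 CPM in the null pair and 37.3 and 22.0 CPM in wild type, overlapping, and did not pass (0.86 ± 0.54 SE, adjusted p = 0.484).

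Most hormone-sensing and secretory genes lay below 0. Of 18 hormone-sensing genes 13 lay below 0, with a median of -0.84, and 1 passed: Ly6a, which encodes the surface protein Sca-1, found also on stromal and endothelial cells, was at 4.49 and 2.11 CPM against 45.9 and 49.8 CPM (-3.83 ± 0.76 SE, adjusted p = 0.0134; 0.0493 with A6 alone). It was not called without A6, A1 or A2 (adjusted p = 0.138, 0.0532 and 0.0718). Of 21 genes of secretory progenitors 17 lay below 0, with a median of -1.43, and 2 fell. With A6 alone the median was -0.91 and 1 fell. Lbp, the lipopolysaccharide-binding protein, was at 10.4 and 6.72 CPM against 61.1 and 43.5 CPM (-2.60 ± 0.48 SE, adjusted p = 0.0045), and missed the threshold without A6 (0.0723). Ltf, the milk iron-binding protein lactoferrin, was at 4.01 and 4.61 CPM against 59.9 and 41.1 CPM (-3.54 ± 0.86 SE, adjusted p = 0.0427), and it passed in no fit that left out 1 of the 4 libraries (0.117 to 0.222).

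Milk genes spread widely within both groups. The 17 genes summed to 200 and 2703 CPM in null pools A5 and A6 and to 13802 and 745 CPM in wild-type basal pools A1 and A2, and their median difference was -2.91 with no fall called. Csn2, the beta-casein gene, named for its spread after its values were seen, was at 9.79 and 1196 CPM in the null pair and 6902 and 48.9 CPM in wild type. The 1 member that passed was Lpo, which encodes lactoperoxidase and rose to 12.2 and 100 CPM from 1.22 and 0.67 CPM (5.94 ± 1.26 SE, adjusted p = 0.0193; 0.0103 with A6 alone). Lpo lost its call without A6 (adjusted p = 0.257), A1 (0.157) or A2 (0.214).

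No keratin or adhesion gene of basal cells was called in either direction. Krt14, a basal gene, chose the A5 library, so the levels of basal genes in A5 are touched by that choice. All but 2 of 23 keratin, adhesion and transcription factor genes of basal cells lay above 0, with a median of 1.06 (0.75 with A6 alone, with 17 above 0). Lama3, a chain of laminin-332, was at 680 and 558 CPM in the null pair and 371 and 328 CPM in wild-type basal cells (0.82 ± 0.57 SE, adjusted p = 0.539). Col17a1, the hemidesmosomal collagen, was at 589 and 515 CPM against 194 and 297 CPM (1.17 ± 0.86 SE, adjusted p = 0.577; 0.0332 without the low-count filter). The groups did not overlap for either gene. Of 17 contractile genes 14 lay above 0, with a median of 0.86 (0.66 with A6 alone), and 1 fell: Des, the intermediate filament desmin of muscle and mural cells, was at 1.12 and 0.38 CPM against 10.4 and 6.83 CPM (-3.43 ± 0.89 SE, adjusted p = 0.0483; 0.0824 with A6 alone). Among 22 matrix and basement membrane genes the 2 nidogens fell and none rose, and the list median was 0.10 but -0.45 with A6 alone. Wild-type stroma at 12 months held Nid2 at 58.3 and 45.7 CPM, above the 12.8 and 13.9 CPM of wild-type basal cells. Nid1 was at 24.4 and 11.9 CPM against 183 and 120 CPM (-3.05 ± 0.70 SE, adjusted p = 0.0328), and Nid2 had 1 count in the null pair and 146 in wild type, a ratio of 156 with an interval of 27.5 to 6185 (adjusted p = 0.00649). With A6 alone neither passed (adjusted p = 0.0678 and 0.0571). Without A5 the value for Nid1 was 0.0543, and without A6, A1 or A2 it was 0.25, 0.206 and 0.1, while Nid2 lost its call only without A6 (0.0981).

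**Figure D3:**
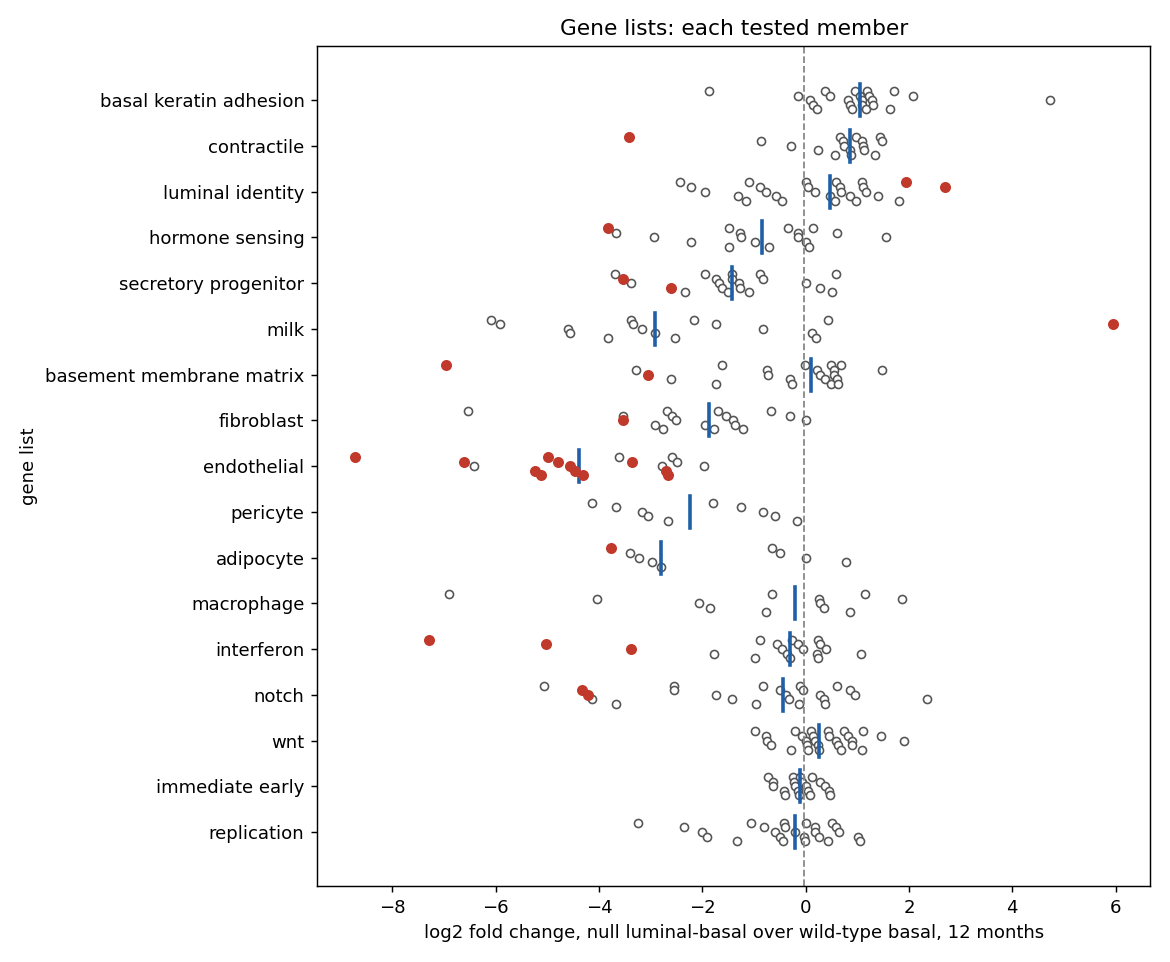
Log2 fold change of each tested member of 17 gene lists, null luminal-basal over wild-type basal at 12 months. Filled red points passed the test, open points did not, vertical bars are list medians and the dashed line is the median of all genes (-0.03). The 12 called endothelial genes lie between -8.72 and -2.67.

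Signalling and stress lists gave isolated falls. Of 24 Notch pathway genes Dll4 and Notch4, a ligand and a receptor made by endothelium, fell, by 4.21 and 4.33 on the log2 scale (adjusted p = 0.0298 and 0.0364), and the list median was -0.44. Of 19 interferon-stimulated genes 3 fell. Rsad2, the antiviral enzyme viperin, had 1 count in the null pair and 172 in wild type (19.9 and 14.3 CPM), a ratio of 183 with an interval of 32.5 to 7279 (adjusted p = 0.00182). Ifi44 and Gbp3 were the others, with adjusted p = 0.0274 and 0.0427, and Ifi44 was lost with A6 alone (0.109). The other members lay on both sides of 0, and the list median was -0.31. Cxcl2, a neutrophil chemokine, fell by 3.72 and Igfbp7, a secreted binding protein abundant in vessels, by 1.61 (adjusted p = 0.0427 and 0.0462), as 2 of 20 genes of the senescence-associated list. Insig1, a brake on sterol synthesis, was at 7.54 and 7.29 CPM against 43.4 and 38.8 CPM (-2.47 ± 0.52 SE, adjusted p = 0.0138), the only call among 19 lipid synthesis genes. Apart from Rsad2, each of these genes lost its call in at least 1 fit that left out 1 of the 4 libraries, with adjusted p up to 0.12 for Dll4, 0.22 for Notch4, 0.179 for Ifi44, 0.214 for Gbp3, 0.213 for Cxcl2, 0.333 for Igfbp7 and 0.0972 for Insig1. Among 15 regulators of the epithelial-mesenchymal transition, Snai2 was the only call in the full fit, and 14 lay below 0, with a median of -1.31 (-2.51 and 2 calls with A6 alone). These 15 genes summed to 9832.5 and 6900 CPM in wild-type stroma at 12 months and 1495 and 1246 CPM in wild-type basal cells. The sums were 518 and 956 CPM in null pools A5 and A6, and the choice of A5 by Krt14 and Col1a1 touches its value. No gene of the Wnt, TGF-beta and YAP, unfolded protein, replication, immediate-early or mitochondrial genome lists passed. The immediate-early genes, which tissue handling can induce, summed to 6922 CPM in A5 and 29664 CPM in A6, either side of wild-type basal cells at 22677 and 19933 CPM. Their median difference was -0.12 and, with A6 alone, 0.37, and that of the replication genes was -0.21 and 0.26.

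The largest rises by fold were a pseudogene and a mixed set of single genes. Rpl34-ps1 (ENSMUSG00000068396, chr6:71124610-71124963), a processed pseudogene of a ribosomal protein, was at 22.8 and 23.4 CPM in null pools A5 and A6 and had 1 count in the wild-type pair, a ratio of 248 with an interval of 44.1 to 9824 (adjusted p = 0.0074; 0.00215 with A6 alone). Reads of near-identical ribosomal protein copies may be assigned among them, so its level is uncertain. Its call was lost without A2 (adjusted p = 0.172). Padi2 (ENSMUSG00000028927, chr4:140906344-140952586), an enzyme that converts arginine to citrulline, was at 25.4 and 46.1 CPM against 3.06 and 4.29 CPM (3.25 ± 0.55 SE, adjusted p = 0.00209; 0.00782 with A6 alone), and missed the threshold only without A1 (0.0556). Bex1, a small neuronal adaptor protein gene on chromosome X, was at 44.1 and 39.3 CPM against 0.92 and 4.55 CPM (3.81 ± 0.88 SE, adjusted p = 0.0264; 0.0565 with A6 alone). Slc38a1, a glutamine transporter, was at 95.0 and 66.4 CPM against 4.89 and 5.62 CPM (3.92 ± 0.96 SE, adjusted p = 0.0454; 0.0964 with A6 alone). Has2, which makes hyaluronan, was at 54.4 and 36.5 CPM against 6.11 and 6.29 CPM (2.87 ± 0.70 SE, adjusted p = 0.0374; 0.0819 with A6 alone).

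Within the null pair the pools were far apart for some rises. Ppp2r2c, a regulatory subunit of protein phosphatase 2A, was at 5.30 CPM in A5 and 56.4 CPM in A6 against 0 and 1.47 CPM in wild type (5.11 ± 1.31 SE, adjusted p = 0.0491), and without A6 the adjusted p was 0.478. Cadm4, a cell adhesion molecule, was at 6.74 and 25.9 CPM against 2.75 and 0.80 CPM (3.30 ± 0.84 SE, adjusted p = 0.044; 0.353 without A6). Krt80, an epithelial keratin, Podxl2, a relative of podocalyxin, Dpysl5, a neuronal cytoskeleton regulator, and Plbd1, a lysosomal phospholipase-like protein, rose by 3.12, 3.37, 2.95 and 2.87 on the log2 scale, with adjusted p between 0.0381 and 0.047. At 12 months wild-type luminal cells also exceeded wild-type basal cells in Slc38a1 (30.9 and 37.7 CPM), Padi2 (13.5 and 19.5) and Bex1 (7.91 and 7.06). They did so in Cadm4 (8.30 and 5.20 CPM), Dpysl5 (6.76 and 8.92) and Rpl34-ps1 (1.16 and 0.37) too. Luminal cells lay lower for Has2 (0 and 2.79 CPM), Podxl2 (0.19 and 0.56) and Plbd1 (2.12 and 2.79). Ppp2r2c was at 0 CPM in both luminal libraries, and Lpo and Krt80 overlapped. Without A1 none of the 12 largest rises passed except Rpl34-ps1 (adjusted p = 0.0497), and without A2 none passed except Padi2 (0.039). The largest falls not yet named were Sfrp4, a secreted Wnt antagonist, and Lsmem1, a small membrane protein, with ratios of 68.2 (interval 18.5 to 569) and 41.9 (14.0 to 206) and adjusted p = 0.0481 and 0.04996. Both were lost when any of the 4 libraries was left out (0.0973 to 0.264 and 0.108 to 0.207).

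**Figure D4:**
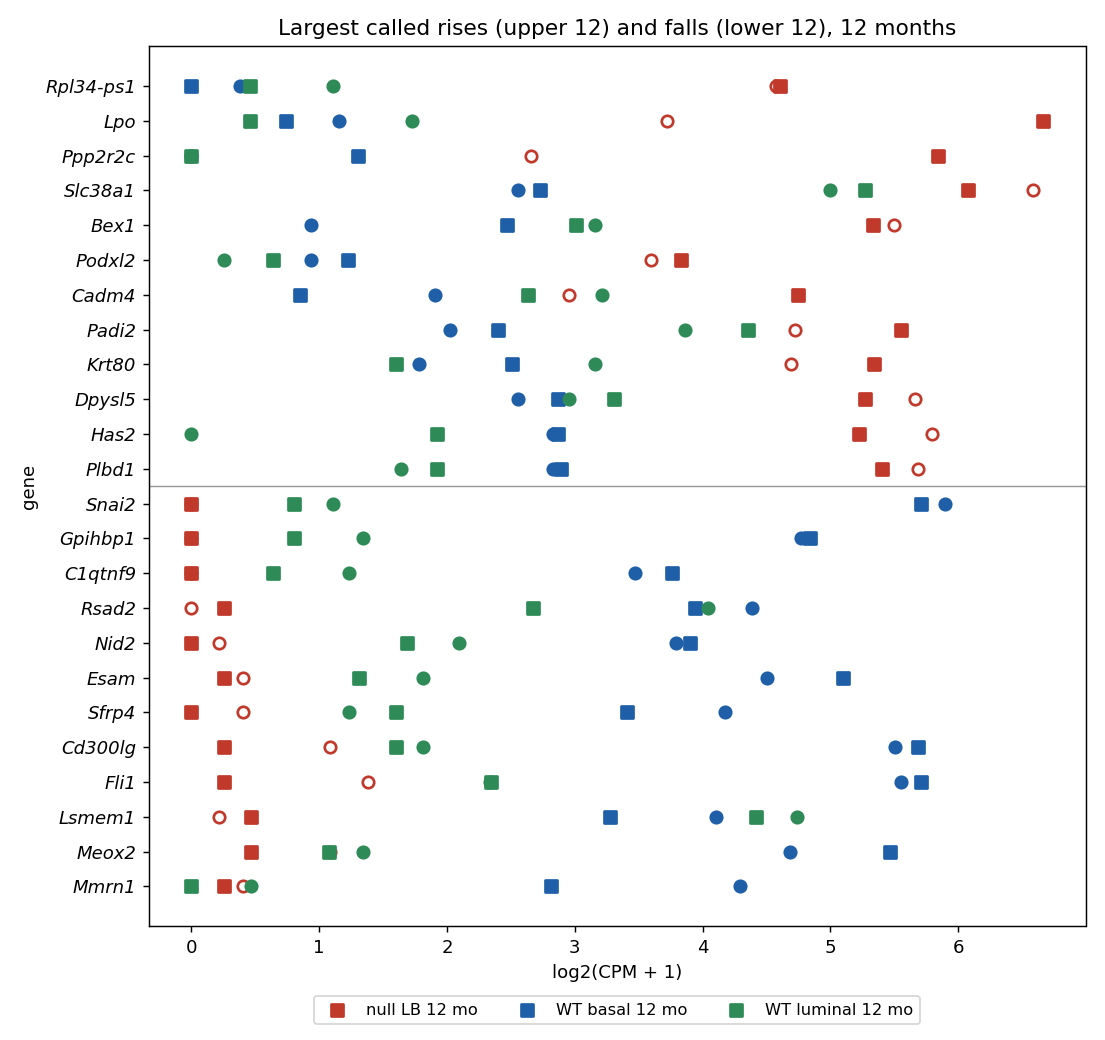
Level of the 12 largest called rises and 12 largest called falls in each library, as log2(CPM + 1). Each group has a circle and a square, 1 per pool, open circles are the A5 library labelled stromal, and hidden points lie under others of the same value. Null and wild-type basal libraries do not overlap for any of the 24 genes, which the choice of genes requires.

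Upstream sequence of luminal genes, and of Ppp2r2c, was examined for the E-box that Snai2 is known to bind. Ppp2r2c is no luminal gene here, at 0 CPM in both wild-type luminal libraries at 12 months. The letters CAGGTG, or CACCTG on the other strand, were searched in the 250 bases before RefSeq gene starts (GRCm38.p6), and 17.2% of all 32851 windows held a match. The share was 22.0% of 50 windows for the genes called higher (35 of 43 genes matched) and 10.7% of 206 windows for those called lower (153 of 231 matched), beside 16.1% for all tested genes. The windows of Cldn7 (chr11:69964529-69964778, plus strand) and Spint1 (chr2:119237110-119237359, plus strand), the 2 luminal genes called higher, and of Cldn4 (chr5:134946935-134947184, minus strand) and Ppp2r2c (chr5:36868260-36868509, plus strand), whose windows hold the letters, are shown 5′ to 3′ with matches in capitals.
Cldn7: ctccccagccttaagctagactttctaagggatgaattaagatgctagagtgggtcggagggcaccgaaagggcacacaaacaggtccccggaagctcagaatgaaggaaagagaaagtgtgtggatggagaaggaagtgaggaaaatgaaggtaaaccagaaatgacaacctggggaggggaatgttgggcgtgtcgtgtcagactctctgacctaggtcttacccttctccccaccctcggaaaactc
Spint1: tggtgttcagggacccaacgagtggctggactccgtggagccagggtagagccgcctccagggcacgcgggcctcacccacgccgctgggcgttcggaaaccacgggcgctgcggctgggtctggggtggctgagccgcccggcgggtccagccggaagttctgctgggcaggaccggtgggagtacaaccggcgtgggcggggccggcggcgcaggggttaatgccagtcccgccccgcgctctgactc
Cldn4: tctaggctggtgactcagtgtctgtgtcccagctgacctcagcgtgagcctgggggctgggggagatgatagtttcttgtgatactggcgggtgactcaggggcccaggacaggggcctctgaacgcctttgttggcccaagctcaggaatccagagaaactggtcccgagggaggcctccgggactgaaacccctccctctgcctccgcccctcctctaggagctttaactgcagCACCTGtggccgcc
Ppp2r2c: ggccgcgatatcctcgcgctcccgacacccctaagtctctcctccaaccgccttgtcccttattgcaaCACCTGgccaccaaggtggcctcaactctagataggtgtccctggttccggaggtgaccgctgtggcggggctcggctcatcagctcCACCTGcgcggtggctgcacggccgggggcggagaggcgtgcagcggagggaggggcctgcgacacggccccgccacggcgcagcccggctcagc
The Cldn7 and Spint1 windows hold no match. The Cldn4 window holds 1 match, which begins 14 bases before the start, and that of Ppp2r2c holds 2, at 182 and 95 bases before it. A second annotated start of Cldn7 has 2 matches, at 97 and 57 bases before it, in a window that overlaps transcribed sequence and is not shown. A match describes letters only.

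The same genotypes at 3 months gave a comparison that shares no library with that at 12 months. Null luminal-basal pools F82 and F84 were set against wild-type basal pools F79 and F81, and 47 genes were called (0.295%), 39 higher (0.245%) and 8 lower (0.0503%). In this group the F82 library, though labelled null, held 44 counts of Snai2 (5.76 CPM) and a fibroblast sum of 4971 CPM, whereas F84 held 0 counts and 476 CPM. Without F82, 215 genes were called at 3 months, 159 without F84, 3 without F79 and 11 without F81. Of the 43 rises at 12 months 9 were also called higher at 3 months, 20.9% of the one list and 23.1% of the other, and 33 of the 43 lay above 0 at 3 months, where 52.2% of all genes did. Of the 231 falls 5 were also called lower, 2.16% and 62.5% of the lists, and 151 (65.4%) lay below 0 at 3 months, where 47.5% of all genes did.

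The genes called higher at both ages were Cldn7, Padi2, Bex1, Rpl34-ps1, Chrnb1, Ppp1r9a, Gca, Celf2 and Hspa4l. The last 5 are named for that overlap, after their values were seen. Cldn7 was at 23.3 and 35.8 CPM in null pools F82 and F84 and 1.53 and 1.38 CPM in wild-type basal cells at 3 months (4.34 ± 0.65 SE, adjusted p = 0.00227). Ppp1r9a, the neuronal actin-binding protein neurabin, had the smallest p of all rises at 12 months, with 114 and 137 CPM against 24.2 and 13.8 CPM (2.74 ± 0.39 SE, adjusted p = 0.000417), and 87.6 and 96.5 CPM against 2.87 and 5.33 CPM at 3 months (4.43 ± 0.42 SE, adjusted p = 5.59e-06). Gca, a calcium-binding protein, was at 102 and 199 CPM against 22.3 and 30.4 CPM at 12 months (2.51 ± 0.52 SE, adjusted p = 0.012) and 140 and 106 CPM against 1.53 and 7.97 CPM at 3 months. Chrnb1, a subunit of the muscle acetylcholine receptor, was higher by 2.83 ± 0.60 SE and 2.91 ± 0.60 SE at the 2 ages. Mmrn1, Btnl9, Cxcl9, Drp2 and Itpkb were lower at both ages. Cldn4 was higher in null cells at 3 months, with 63.9 and 53.8 CPM against 2.10 and 6.95 CPM (3.60 ± 0.60 SE, adjusted p = 0.00867), while at 12 months wild-type basal cells also held 37.3 and 22.0 CPM. The difference between the ages did not pass the test for Cldn4 (-2.74 ± 0.78 SE, adjusted p = 0.111) or Cldn7 (-1.65 ± 0.83 SE, adjusted p = 0.398).

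The test of the difference itself called 85 genes (0.534%), 11 with a higher log2 fold change at 12 months (0.0691%) and 74 with a lower one (0.465%). Has2 was 2.87 ± 0.70 SE higher in null cells at 12 months and 1.82 lower at 3 months, where wild-type basal cells held 61.4 and 56.1 CPM and null cells 7.34 and 25.9 CPM (difference 4.68 ± 0.96 SE, adjusted p = 0.0321). P2rx4, an ATP-gated ion channel, was at 40.8 and 51.2 CPM in the null pair and 9.48 and 11.8 CPM in wild-type basal cells at 12 months, and at 13.8 and 18.5 CPM against 22.4 and 33.1 CPM at 3 months (difference 2.88 ± 0.50 SE, adjusted p = 0.0169). Dlc1, a GTPase-activating protein, was at 11.1 and 12.1 CPM against 120 and 109 CPM at 12 months and at 89.1 and 52.3 CPM against 59.1 and 38.2 CPM at 3 months (difference -3.84 ± 0.60 SE, adjusted p = 0.0132). Among endothelial genes 2 of 18 passed this test, both with a lower log2 fold change at 12 months. The summed endothelial level at 3 months was 278 and 77.3 CPM in null F82 and F84 and 568 and 309 CPM in wild-type basal cells. The count of 85 fell to between 3 and 5 without wild-type pool A1, A2, F79 or F81 and to 31 without F82, and rose to 215 without A6 and 536 without F84.

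**Figure D5:**
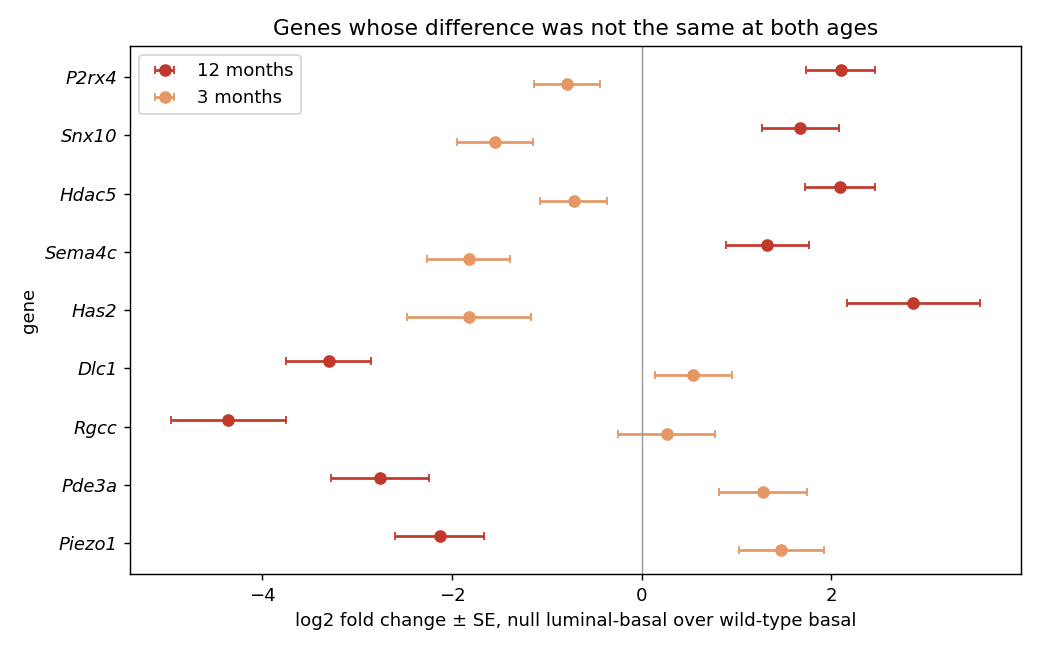
Log2 fold change (points) with its standard error (bars), null luminal-basal over wild-type basal, at 12 months and at 3 months for 9 genes among those with the smallest p in the test of the difference. The genes were chosen by that test, and all 9 lie on opposite sides of 0 at the 2 ages.

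Against wild-type luminal cells of the same age the null pair was higher in basal and contractile genes and lower in luminal ones. Of the genes tested 1683 differed (10.6%), 1129 higher (7.09%) and 554 lower (3.48%), and with A6 alone 1741 did (10.1%), 941 higher (5.46%) and 800 lower (4.64%). The A5 library was chosen by Krt14, a basal gene, so counts of basal and contractile genes with both null libraries are partly fixed by that choice. Of 23 basal keratin and adhesion genes 17 were higher and none lower, and of 17 contractile genes 15 were higher. With A6 alone these counts were 14 and 15. Of 27 luminal identity genes 10 were lower, and of the hormone-sensing and secretory genes 10 of 18 and 11 of 21 were lower, with none higher. With A6 alone 6, 8 and 8 were lower. Postn, the matrix protein periostin, was at 1616 and 1340 CPM in the null pair and 35.1 and 24.7 CPM in wild-type luminal cells (5.63 ± 0.39 SE, adjusted p = 6.38e-09). Bgn, the proteoglycan biglycan, was at 693 and 737 CPM against 18.7 and 16.5 CPM, and Axl, a receptor tyrosine kinase, at 339 and 202 CPM against 8.49 and 5.20 CPM. Igsf10 and Kirrel, both of the immunoglobulin superfamily, were higher by 5.71 ± 0.38 SE and 5.11 ± 0.38 SE. Krt18 was at 78.5 and 109 CPM against 731 and 618 CPM (-2.85 ± 0.41 SE, adjusted p = 4.69e-05). Rasgrf1, a Ras exchange factor, Rftn1, a lipid-raft protein, Lipa, the lysosomal acid lipase, and Slc7a2, a cationic amino acid transporter, were lower by 5.28, 5.32, 3.37 and 2.91 on the log2 scale. All 10 of these genes stayed called with each of the 4 libraries left out. The count of 1683 became 892 without wild-type luminal pool A1 and 869 without A2.

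Genes of the 3-month layer sets were spread over both directions in the comparison with wild-type basal cells. Of the 627 luminal-side genes 10 were called higher (1.59%) and 15 lower (2.39%), and of the 1049 basal-side genes 4 were called higher (0.381%) and 25 lower (2.38%). The luminal-side genes were 3.94% of all genes tested, 23.3% of the 43 rises and 6.49% of the 231 falls, and the basal-side genes were 6.59%, 9.3% and 10.8%. The median log2 difference of the luminal-side genes was -0.41 at 12 months beside -0.03 over all genes, but with A6 alone it was -0.30, level with the median of all genes in that fit. At 3 months it was 0.77 beside 0.04 over all genes, and 23 of the 627 were called higher and none lower. The 3-month wild-type basal libraries, the reference of that comparison, also chose these genes as low in basal cells. That choice favours higher values in the null cells, so the 3-month values are no separate result and are not set against those at 12 months.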

How the data were processed

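Amplified cDNA (NuGEN Ovation V2, from 5 ng of RNA) was made into TruSeq Nano libraries, per the labels' protocols. The submitters' processing notes name GRCm38, TopHat2 2.0.13 and HTSeq, without an HTSeq version or strand setting, so reads of overlapping genes cannot be told apart. The authors deposited whole-number read counts per gene, covering 45706 genes and 26 libraries. Gene positions were taken from GENCODE vM21, where 45143 genes were found.

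A single robust quasi-likelihood model (edgeR 4.0.16, R 4.3.3) was fitted to all 26 libraries in 13 groups. It used TMM scaling and filterByExpr by group (minimum count 10 and minimum total 15), and 15917 genes were tested. The threshold was an adjusted p (Benjamini-Hochberg) of 0.05. CPM is the count divided by the TMM-scaled library total, times 1e+06. The standard error is the size of the log2 difference divided by the square root of F. For bounds, a group without counts was set to 3 counts, and ratios over 1 to 3 counts carry exact binomial intervals at 0.95 that cover counting error only. The script was tested on simulated data.

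Named genes were the 12 largest rises and falls that were called, averaged 10 CPM or more in the higher group, did not overlap and kept their direction with A6 alone (symbols of numbered models and clones left out). To these were added up to 5 members of a described list (called ones, or else those of highest CPM) and the 5 smallest p-values each way in the other comparisons. A gene that this rule names is not reported here. Snai2, Snai1, Krt14, Krt5, Krt8, Krt18, Cldn4, Col1a1, Epcam and Itga6 were always included. The libraries, gene lists and tests were chosen with earlier results of these data known, so a pattern seen before is no independent support. Lists are described by counts and medians. Alternatives were RLE scaling, no low-count filter, DESeq2 1.42.0, a replicate block by pool, the 4 libraries alone, the deposited labels, both doubted A5 libraries left out, and each library left out in turn, where a lone library is assumed to vary like the other groups. By the labels, fractions with the same pool number come from the same mice. Their deviations from group means had correlations of 0.00279 to 0.3, above 0.1 in 8 of 15 pairs, while groups that were compared had no pool in common.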

Additional observations from a re-analysis of the deposited data

Results flagged for a closer look

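The log2 fold change of null luminal-basal over wild-type basal cells differed between 12 and 3 months for 85 genes (edgeR test of the difference, adjusted p under 0.05). Genotype and pool cannot be told apart at either age, nor can genotype and gate where the gates differed. Among genes with the smallest p-values, the 12-month log2 fold change exceeded the 3-month one by 2.88 for P2rx4, 3.22 for Snx10, 2.81 for Hdac5, 3.15 for Sema4c and 4.68 for Has2. The difference was -3.84 for Dlc1, -4.62 for Rgcc, -4.04 for Pde3a and -3.61 for Piezo1. With both doubted A5 libraries left out all 9 of these had the same direction, and 7 were called, with Sema4c (adjusted p = 0.0823) and Has2 (0.0679) the exceptions. None of the 9 kept its call with each of the 8 libraries left out in turn: without F79 P2rx4, Snx10 and Dlc1 stayed called, and without F81 only Pde3a did. At 3 months alone none of the 9 passed, and at 12 months alone 8 did, Sema4c being the exception. The F82 library, which held 44 counts of Snai2, enters every one of these values. Its part in them was not tested beyond leaving it out, which left Hdac5 (0.0614), P2rx4 (0.059) and Has2 (0.106) above the threshold.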

How the results depend on the processing

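Against the 274 genes called between null luminal-basal and wild-type basal cells at 12 months (43 higher, 231 lower), no low-count filter gave 905 (224 and 681), DESeq2 772 (207 and 565), the 4 libraries alone 83 (12 and 71) and the labels as deposited 0 (0 and 0). With both doubted A5 libraries left out 114 were higher. Leaving out 1 library gave 92 to 499 genes, 4 to 153 higher and 87 to 346 lower. The higher share of calls was 15.7%, 24.8% without the filter, 26.8% with DESeq2 and 29% with both A5 libraries left out. The 47 genes at 3 months became 480 without the filter, 241 with DESeq2, 8 with the deposited labels and 3 to 215 with 1 library left out. The 85 genes that differed between ages became 766, 532 and 0 under those settings (915 at an unadjusted p under 0.05 with the deposited labels), and 3 to 536 with 1 library left out. The 1683 genes against luminal cells became 546 with the deposited labels and 869 to 1942 with 1 library left out. With a replicate block by pool, where same-pool libraries are the same mice but the groups compared share no pool, 373 genes were called at 12 months and 134 in the difference between ages, against 85. The block ended the calls of Cadm4, Has2, Lsmem1 and Gbp3 at 12 months (adjusted p = 0.0557, 0.0517, 0.0773 and 0.052). RLE scaling ended those of Lsmem1, Cd34, Cxcl2 and Igfbp7 (adjusted p 0.05 to 0.0529). With the deposited labels 14 log2 differences changed sign, to 0.18 for Nid2, 2.05 for Sfrp4, 0.36 for Snai1, 3.59 for Col1a1, -0.45 for Itga6, -0.23 for Lama3, 0.89 for Des, 1.39 for Ly6a, 2.07 for Nid1, 1.73 for Cd34, 0.50 for Notch3, 0.54 for Abcc9, 1.02 for Pdgfrb and 0.23 for Heyl. In fits with fewer libraries fewer samples set the spread, and some of these fits gave more calls and some fewer. The cause of these changes was not tested in any fit. With 2 pools a group and library totals from 3203664 counts, a gene that missed the threshold is not shown to be level.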

Other observations

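Rpl34-ps1, the ribosomal protein pseudogene with the largest fitted rise, separated the genotypes in nearly every library of the series. It had 36 to 239 counts (6.98 to 30.7 CPM) in 13 null libraries of all fractions and both ages, and 0 to 6 counts (0 to 1.16 CPM) in all 12 wild-type libraries. The exception was the stromal library of null pool A6, with 2 counts (0.40 CPM), although that library held 1 count of Snai2 and other libraries of pool A6 held 20.3 to 27.9 CPM of the pseudogene.

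Cdk2, a kinase of the cell cycle that was called higher, rested on 1 library, with 7.06 CPM in A5 and 111 CPM in A6 beside 6.42 and 7.63 CPM in wild-type basal cells. Ada, adenosine deaminase, had the smallest p among falls whose mean in the null basal gate was not above that in wild-type basal cells, with 0.96 and 0.58 CPM in the null pair and 14.1 and 18.9 CPM in wild type (-4.37 ± 0.70 SE, adjusted p = 0.00141; 0.0163 with A6 alone). Both were named after their values were seen.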
